A study of Homo sapiens with 3 samples.

Results

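The genes described here are the numbered zinc finger genes of human chromosome 19, named ZNF followed by a number and in a few cases by a letter from A to C. They were taken from the array annotation as every transcript probe whose gene name has this form and whose position in hg19 lies on chromosome 19. This rule gave 366 of the 58201 probes and 242 of the 43317 gene names on the array. The measurements come from HCT116 cells, an established human colorectal cancer cell line. The cells were transfected with small interfering RNA against SMARCA4, the ATPase subunit of the SWI/SNF chromatin remodelling complex, and RNA was hybridised in 1 colour to an Agilent SurePrint G3 Human Gene Expression v3 array. There were 3 conditions, SMARCA4-KD1, SMARCA4-KD2 and NC, with 1 array each. The protocol lists a pair of siRNA sequences without saying which belongs to which knockdown, and NC is the negative control, for which the study's methods describe a scrambled RNA. The sample titles name SMARCA4 while the treatment field names PRMT1, and the numbering of the knockdowns follows the treatment field.

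Most of these genes encode KRAB zinc finger proteins, in which a row of C2H2 zinc fingers reads a DNA sequence and an amino-terminal KRAB domain calls in the corepressor TRIM28. TRIM28 in turn brings the histone methyltransferase SETDB1 and heterochromatin proteins, and this pathway is best known for silencing transposable elements. The genes arose by repeated tandem duplication, so that neighbours on chromosome 19 are often close paralogs. The question put to the arrays was how the RNA level of each of these genes differed between the SMARCA4 knockdowns and NC, and how such differences were arranged along the chromosome.

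SMARCA4 itself, also on chromosome 19, had a signal of 14026 in NC against 3960 and 4129 in the knockdowns. Here and below a pair of values gives SMARCA4-KD1 first, and 3 signals give SMARCA4-KD1, SMARCA4-KD2 and NC in this order. The log2 changes of SMARCA4 against NC were -1.91 and -1.80, and PRMT1 had changes of 0.27 and 0.37. All epithelial markers listed (EPCAM, KRT8, KRT18, KRT19, CDH1 and CLDN4) were detected on each of the 3 arrays, and CLDN4 alone differed from NC by 1.5-fold, with changes of -0.67 and -0.68. Of the markers of other cell types, PECAM1, COL1A2 and HBB were not well above background on any array, and the leukocyte gene PTPRC was dim, with signals from 37.0 to 49.4. Slide 1 carried both knockdowns and slide 2 carried NC, with a scan each, and slide and condition cannot be told apart. Log2 levels are given against an array's own 75th percentile, at signals of 236.825, 228.194 and 223.151.

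Zinc finger genes of chromosome 19 were detected more often than array genes in general. Of the 242 names 239 are symbols in RefSeq and 3 have since changed, and 238 are protein-coding genes there. A probe called well above background by the extraction software was found for 172 of the 242 genes in NC (71.1%), for 177 in SMARCA4-KD1 (73.1%) and for 180 in SMARCA4-KD2 (74.4%). Over all gene names the shares were 47.3% in NC, then 48.5% and 49.1%. On at least 1 array, 183 genes (75.6%) passed and are called measured here, and 171 of them passed on all 3 arrays. The other 59 genes were not well above background anywhere and have no change to report. A high share was not particular to these genes, since 217 of 255 ZNF genes of other chromosomes were measured. Of the other genes of chromosome 19, 1144 of 1715 were measured. The median signal of the 183 measured genes was 196 in NC, 278 in SMARCA4-KD1 and 248 in SMARCA4-KD2. Their median log2 level in NC was -0.18, compared with 0.37 for all measured genes. Single signals ran from 3.58 to 166311 in NC.

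Against NC, far more of the measured zinc finger genes were higher than lower in either knockdown. In SMARCA4-KD1, 41 of the 183 (22.4%) were at least 1.5-fold higher, where 11.2% of the 22619 measured genes of any name were, and 7 (3.83%) were at least 1.5-fold lower, against 12.3% of all genes. In SMARCA4-KD2, 35 (19.1%) were at least 1.5-fold higher, against 10.1% of all genes, and 4 (2.19%) were at least 1.5-fold lower, against 9.74%. The 1.5-fold threshold was taken from the study's criterion, without the condition on p that goes with it there, and with 1 array per condition no test stands behind these counts. RNA came from bulk cultures, so that a change in RNA per cell and a change in the mix of cells cannot be told apart.

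The median log2 change of the measured zinc finger genes was 0.20 (interquartile range from -0.11 to 0.54) with SMARCA4-KD1 and 0.22 (from -0.07 to 0.52) with SMARCA4-KD2. Over all genes the interquartile range was from -0.31 to 0.30 in SMARCA4-KD1, and the median in SMARCA4-KD2 was 0.02. Changes above 0 were found for 122 of the 183 zinc finger genes in SMARCA4-KD1 and for 127 in SMARCA4-KD2. The NC array is shared by both comparisons, so these 2 sets of changes are not independent. The SD of the difference between the knockdown arrays was 0.32 over the zinc finger genes and 0.43 over all genes. Among the 171 genes well above background on the 3 arrays, 39 were at least 1.5-fold higher and 6 lower in SMARCA4-KD1, and 35 were higher and 3 lower in SMARCA4-KD2. Of the 19496 genes of any name detected this way, 10.1% were higher and 11.9% lower in SMARCA4-KD1, and 9.21% and 9.28% in SMARCA4-KD2.

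This lean was shared by zinc finger genes elsewhere in the genome and was weaker in the other genes of chromosome 19. Of 217 measured ZNF genes on other chromosomes, 20.7% and 17.1% were at least 1.5-fold higher, with medians of 0.18 and 0.19. Of 1144 other measured genes of chromosome 19, 12.6% and 13.0% were higher, with medians of 0.05 and 0.07. At least 1.5-fold lower were 5.99% and 5.07% of the ZNF genes of other chromosomes, and 9.79% and 7.17% of the other genes of chromosome 19.

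With both knockdown arrays set against NC in limma, which leaves 1 residual degree of freedom, no zinc finger gene passed an adjusted p of 0.05 after Benjamini-Hochberg adjustment over all genes, where 0.0% of all genes did. The smallest adjusted p was 0.0675. At an unadjusted p under 0.05, limma gave 50 zinc finger genes higher (27.3%), beside 16.7% of all genes, and 9 lower (4.92%), beside 14.9% of all genes. By this measure ZNF genes of other chromosomes had a larger share higher, and also a larger share lower. The only spread in this fit was that between the knockdown arrays, which carry different siRNAs and lay on 1 slide. NC, alone on slide 2, was taken to vary likewise, so p does not measure the spread between cultures or slides. The adjusted count was unstable. It rose above 0 after quantile normalization and with genes detected on all 3 arrays, as did that over all genes.

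The 10 genes that were highest against NC in both knockdowns, ranked by the smaller of the 2 changes among genes detected on all 3 arrays, were ZNF841, ZNF134, ZNF616, ZNF749, ZNF473, ZNF91, ZNF805, ZNF227, ZNF561 and ZNF317. Each was higher on both knockdown arrays than on the NC array, which follows from the ranking. ZNF841 had signals of 76.2, 76.9 and 20.8, log2 changes of 1.79 and 1.85. ZNF616, which lies beside it, had signals of 621, 566 and 216, log2 changes of 1.44 and 1.36. For both neighbours the knockdown arrays lay close to each other and above NC.

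ZNF134 had signals of 467, 408 and 131, and its log2 changes were 1.74 and 1.61. A second, dimmer ZNF134 probe gave changes of 1.53 and 1.40, close to those of the first. ZNF749 had signals of 62.2, 54.5 and 21.1, log2 changes of 1.47 and 1.34. ZNF805 lies in the same cluster as both and had signals of 394, 312 and 141, log2 changes of 1.39 and 1.11, with 1.11 and 0.97 at its second probe.

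ZNF473, also known as ZFP100, is a component of the U7 snRNP that processes the 3' end of histone transcripts. Its signals were 235, 210 and 87.2, log2 changes of 1.34 and 1.23. ZNF91, a repressor of SVA retrotransposons, had signals of 60.3, 61.0 and 26.1, log2 changes of 1.12 and 1.19. Of its 3 probes only this 1 was well above background on any array. ZNF227 had signals of 183, 196 and 87.4, log2 changes of 0.98 and 1.14. In these genes, as in those above, NC was the lowest of the 3 arrays, again as a result of the ranking.

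ZNF561 and ZNF317, both of the cluster between ZNF557 and ZNF846, complete the 10. ZNF561 had signals of 3038, 2713 and 1420, log2 changes of 1.01 and 0.90, with 0.43 and 0.70 at a second probe. ZNF317 had signals of 2205, 2260 and 1134, log2 changes of 0.87 and 0.96. For dim genes the size of the change depended on the background correction. With normexp the mean change over both knockdowns was 0.71 for ZNF841, 0.49 for ZNF749 and 0.43 for ZNF91, where it had been 1.82, 1.41 and 1.16, while that of ZNF134 was 1.34. The extraction software's own error, which covers the spot and not the culture, was between 0.20 and 0.41 for a log2 change of any gene detected on all 3 arrays.

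Genes that were lower than NC differed from it by less. ZNF350, also known as ZBRK1, a partner of BRCA1 in repressing damage-response genes, had signals of 171, 193 and 291, log2 changes of -0.86 and -0.63. It was the only one of the 10 lowest genes that was at least 1.5-fold lower in both knockdowns. ZNF333 had signals of 99.1, 104 and 152, log2 changes of -0.71 and -0.58, and its second probe gave -0.73 and -0.65. ZNF114 had changes of -0.64 and -0.52, from signals of 65.2, 68.4 and 95.8.

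The remaining genes among the 10 lowest were ZNF780A, ZNF490, ZNF302, ZNF264, ZNF497, ZNF230 and ZNF428. ZNF428 had signals of 4833, 7231 and 8965. Its log2 changes were -0.98 and -0.34, and a second probe gave -0.63 and -0.19. For ZNF780A the probes disagreed. Its brightest probe had signals of 130, 146 and 208, log2 changes of -0.76 and -0.55, while the second had 57.8, 62.3 and 31.1, log2 changes of 0.81 and 0.97, and the third was also above NC. Averaged over probes, the mean change of ZNF780A was 0.41. ZNF302 and ZNF497 also had second probes above 0, with changes of 0.05 and 0.23 for ZNF302 and 0.26 and 0.46 for ZNF497.

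Promoters of genes that moved most are printed below because the array annotation gives no view of what the members share beyond the rule. Each is the 250 bases before the transcription start in RefSeq (GRCh38.p14), 5' to 3' on the gene's strand. Capitals mark matches to short words searched on both strands, namely the ETS word CCGGAAGT, the CCAAT box CCAAT, the SP1 word GGGCGG, the CRE word TGACGTCA, the YY1 word AAGATGGCG, the NRF1 word TGCGCATGC, the ZBTB33 word TCTCGCGAG and the TATA box TATAAA. ZNF841 and ZNF616 are shown as the neighbours with the 2 largest changes of their cluster among genes detected on all arrays, ZNF134, ZNF805 and ZNF264 as cluster neighbours that share a word yet differ in change, ZNF91 as the highest gene of its cluster, and ZNF350 as the lowest gene.
ZNF841 (chr19:52095766-52096015, minus strand): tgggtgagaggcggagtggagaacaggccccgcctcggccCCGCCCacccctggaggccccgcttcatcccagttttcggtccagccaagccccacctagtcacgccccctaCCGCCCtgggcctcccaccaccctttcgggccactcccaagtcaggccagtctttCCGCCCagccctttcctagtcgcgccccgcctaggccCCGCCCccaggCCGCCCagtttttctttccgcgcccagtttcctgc
ZNF616 (chr19:52139939-52140188, minus strand): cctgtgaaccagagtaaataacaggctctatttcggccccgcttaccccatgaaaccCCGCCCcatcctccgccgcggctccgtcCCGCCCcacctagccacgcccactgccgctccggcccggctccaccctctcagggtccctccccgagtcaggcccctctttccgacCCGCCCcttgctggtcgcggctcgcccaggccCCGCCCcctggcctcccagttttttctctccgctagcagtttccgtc
ZNF134 (chr19:57613992-57614241, plus strand): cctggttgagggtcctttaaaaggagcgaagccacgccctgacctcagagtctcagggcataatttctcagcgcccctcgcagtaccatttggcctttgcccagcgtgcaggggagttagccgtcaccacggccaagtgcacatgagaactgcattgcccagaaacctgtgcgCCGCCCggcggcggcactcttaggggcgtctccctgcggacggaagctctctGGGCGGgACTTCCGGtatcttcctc
ZNF805 (chr19:57240382-57240631, plus strand): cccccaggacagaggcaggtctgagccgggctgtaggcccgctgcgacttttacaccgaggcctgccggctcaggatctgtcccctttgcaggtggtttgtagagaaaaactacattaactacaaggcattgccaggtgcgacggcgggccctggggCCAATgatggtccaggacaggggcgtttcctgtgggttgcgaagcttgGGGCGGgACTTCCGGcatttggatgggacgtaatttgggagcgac
ZNF264 (chr19:57191250-57191499, plus strand): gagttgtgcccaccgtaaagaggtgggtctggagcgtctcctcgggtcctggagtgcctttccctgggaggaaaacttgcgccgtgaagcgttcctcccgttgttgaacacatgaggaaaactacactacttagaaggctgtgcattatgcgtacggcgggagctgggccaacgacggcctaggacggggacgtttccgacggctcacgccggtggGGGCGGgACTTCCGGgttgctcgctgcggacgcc
ZNF91 (chr19:23395472-23395721, minus strand): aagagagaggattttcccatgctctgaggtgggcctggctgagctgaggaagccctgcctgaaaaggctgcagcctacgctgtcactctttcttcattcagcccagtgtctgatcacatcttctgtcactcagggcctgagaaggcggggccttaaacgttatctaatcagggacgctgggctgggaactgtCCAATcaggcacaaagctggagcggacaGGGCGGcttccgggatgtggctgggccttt
ZNF350 (chr19:51986841-51987090, minus strand): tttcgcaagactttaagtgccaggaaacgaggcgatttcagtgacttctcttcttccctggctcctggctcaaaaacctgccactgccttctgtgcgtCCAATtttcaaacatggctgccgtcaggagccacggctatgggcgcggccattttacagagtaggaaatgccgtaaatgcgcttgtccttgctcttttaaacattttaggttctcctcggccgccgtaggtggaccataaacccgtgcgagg

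The promoters of ZNF841 and ZNF616 were rich in the SP1 word, with 5 matches in ZNF841 and 4 in ZNF616, and held no other word searched. ZNF134, ZNF805 and ZNF264 shared the same 15 letters GGGCGGGACTTCCGG, an SP1 word and an ETS word 1 base apart. This joined word, noticed in the printed sequences, was found in 28 of 27305 promoters (0.103%), and 9 of the 28 belonged to the zinc finger genes of chromosome 19. Of these 9 genes, 8 lay in the cluster between ZNF628 and ZNF446. Their changes did not run one way. With SMARCA4-KD1 first, ZNF134 had 1.74 and 1.61, ZNF805 had 1.39 and 1.11, ZNF547 had 0.02 and 0.08, ZNF550 had -0.22 and -0.42, and ZNF264 had -0.51 and -0.47. ZNF264, with signals of 1104, 1092 and 1476, was among the 10 lowest genes. Of the other 4 genes with the word, ZNF419 and ZNF671 were detected on some arrays only, and ZNF599 and ZNF773 were not measured.

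Shares were counted in windows of 250 bases before and 50 after the start, over the 209 members with a RefSeq promoter. The ETS word was found in 45 (21.5%), compared with 7.79% of promoters of measured genes of any name and 4.44% of all promoters. The CCAAT box was found in 53.1%, compared with 36.2% of measured genes, and the TATA box in 1.91%, compared with 6.76%. The SP1 word was about as frequent as in measured genes (67.0% and 66.2%). The YY1 word was found in 4 of 35 members with a mean change of at least 1.5-fold higher. It was found in 3 of 123 other measured members, and the CRE word gave the same counts. Among measured genes of any name, 3.51% held the YY1 word and 2.94% the CRE word. In the same order, the ETS word was found in 7 and 29 members, the CCAAT box in 19 and 67, and the SP1 word in 26 and 80. The NRF1 word, the ZBTB33 word and the TATA box were found in 0 higher members, and in 4, 2 and 3 others. These differences were not tested. Shares of the CCAAT box and the ETS word differed widely between clusters. All 26 promoters of the cluster between ZNF101 and ZNF254 held a CCAAT box and none the ETS word, and of the 23 promoters between ZNF653 and ZNF791, 21 held a CCAAT box and 1 the ETS word. In the cluster between ZNF628 and ZNF446, 26 of 54 promoters held the ETS word (48.1%). With the ETS word, 8 and 6 of 36 measured members were at least 1.5-fold higher, and without it 28 and 25 of 122, with medians of 0.23 and 0.20 in SMARCA4-KD1. A match describes these letters only, and paralogous promoters are not independent of each other.

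Along the chromosome the genes were grouped into 16 clusters, a new one starting after a gap of more than 1 Mb between neighbouring members, and 8 of these held at least 5 measured genes. Of these 8, the cluster with the highest medians lay between ZNF557 and ZNF846 (chr19:7087867-9868210 in hg19), with 14 of 16 members measured. Its median log2 changes were 0.42 and 0.44, 6 genes were at least 1.5-fold higher in either knockdown and none was lower. ZNF426 had signals of 122, 109 and 63.7, log2 changes of 0.85 and 0.74, and ZNF562 had 1131, 1014 and 574, log2 changes of 0.89 and 0.79. ZNF121, between them, had changes of 1.13 and 0.61.

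The largest cluster, near the end of the long arm between ZNF628 and ZNF446 (chr19:55995696-58992591), had 45 of 59 members measured. Its medians were 0.30 and 0.34, with 13 and 12 genes at least 1.5-fold higher and none lower. It held the longest run of neighbouring measured genes with a mean change of at least 1.5-fold, the 5 genes ZNF416, ZNF530, ZNF134, ZNF211 and ZNF551. Apart from ZNF134, their changes lay between 0.53 and 0.88. The adjoining cluster between ZNF175 and ZNF331 (chr19:52092551-54042778), with 30 of 37 members measured, had medians of 0.33 and 0.30 and 8 and 7 genes higher. The genes ranked highest (ZNF841) and lowest (ZNF350) over the whole chromosome both lie in it.

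Genes of the cluster between ZNF565 and ZNF573 (chr19:36673459-38229314) were often undetected, with 14 of 26 measured. Their medians were 0.36 and 0.32, though only 2 genes were at least 1.5-fold higher in either knockdown. ZNF146, also known as OZF, a protein made of zinc fingers with no KRAB domain, had signals of 2127, 2026 and 1143 there, log2 changes of 0.81 and 0.79.

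Clusters with medians near 0 lay between ZNF653 and ZNF791, between ZNF575 and ZNF296, and between ZNF101 and ZNF254. The cluster between ZNF653 and ZNF791 (chr19:11596540-12740240), with 19 of 25 members measured, had medians of 0.04 and 0.02. That between ZNF575 and ZNF296 (chr19:44040017-45575588), with 19 of 24 measured, had medians of -0.02 and 0.07, although ZNF227 lies in it. The cluster between ZNF101 and ZNF254 (chr19:19790730-24309903), lies next to the centromere. Of its 33 members 25 were measured, with medians of 0.05 and 0.09. Apart from ZNF91 no member of it was at least 1.5-fold higher in SMARCA4-KD1, while ZNF492 alone joined it in SMARCA4-KD2, with signals of 31.3, 44.1 and 23.2. The smallest of the 8, between ZNF807 and ZNF792, had 5 measured genes and medians of 0.20 and 0.06.

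**Figure D1:**
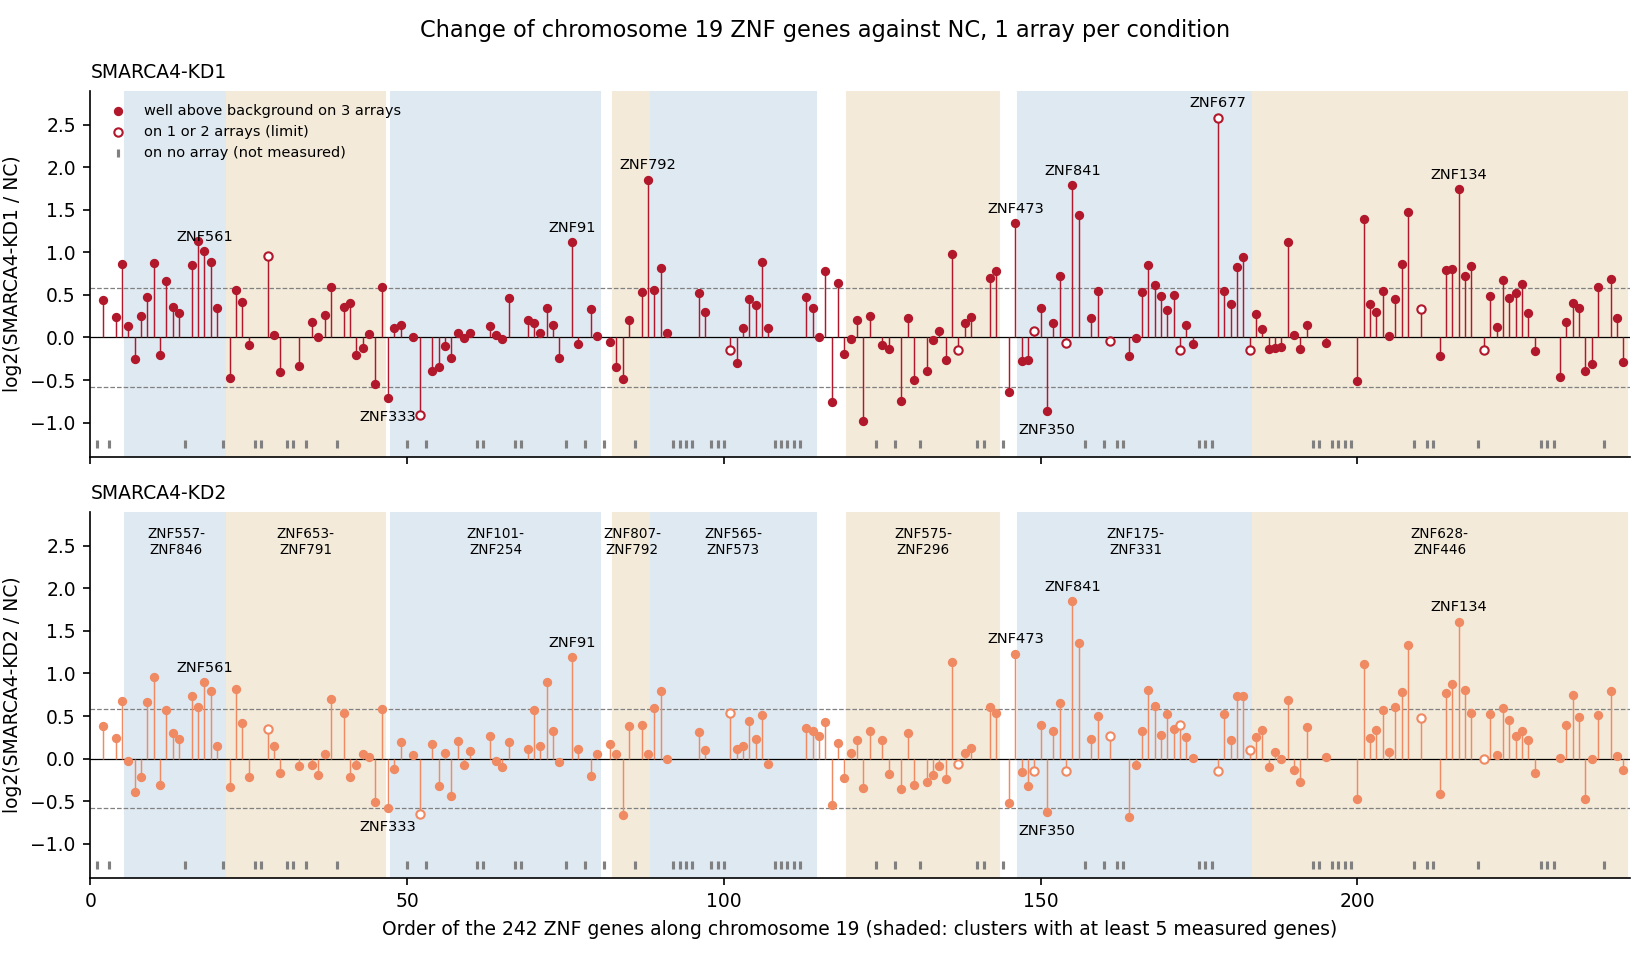
Log2 change against NC of each ZNF gene in its order along chromosome 19, for SMARCA4-KD1 (top) and SMARCA4-KD2 (bottom). Filled points are genes well above background on 3 arrays, open points are limits, ticks at the bottom are genes not measured, shading marks the 8 clusters with at least 5 measured genes and dashed lines mark 1.5-fold. The clusters between ZNF557 and ZNF846, ZNF175 and ZNF331, and ZNF628 and ZNF446 hold most genes above the upper line, while in the cluster between ZNF101 and ZNF254 the points past a line are ZNF91 and ZNF93, with ZNF492 in SMARCA4-KD2.

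Position along the chromosome went with a small part of the spread in changes. Membership of a cluster accounted for 15.3% of the variance of the mean change, and over 168 pairs of neighbouring measured genes in the same cluster the correlation of the mean change was 0.21. For the level in NC these figures were 11.4% and 0.15. The variance was split over all clusters, also those with 1 measured gene, and any such grouping takes up some of it. The pairs share the same 3 arrays, and their genes are not independent replicates. Genes of other kinds within the 8 clusters were set beside the zinc finger genes. Of 188 such measured genes, 11.2% and 13.3% were at least 1.5-fold higher, with medians of -0.03 and 0.03. Of the other 956 genes of the chromosome, 12.9% and 13.0% were higher. Within the 8 clusters 37 and 33 of 171 zinc finger genes were higher. In the cluster between ZNF557 and ZNF846 the 52 other genes had medians of -0.07 and 0.02, beside 0.42 and 0.44 for the zinc finger genes. Medians of the other genes were above 0 in both knockdowns in a pair of clusters, with 0.20 and 0.12 over 15 genes between ZNF175 and ZNF331, and 0.12 and 0.16 over 47 genes between ZNF628 and ZNF446.

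Members with a described role were read whatever their change. ZNF304, a KRAB zinc finger repressor, had signals of 278, 271 and 179, log2 changes of 0.55 and 0.57. ZNF274, which binds within zinc finger genes themselves and brings SETDB1 to them, had signals of 266, 295 and 221, log2 changes of 0.18 and 0.39. Both knockdown arrays were above NC for each of these genes, by less than 1.5-fold.

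ZNF224, a repressor of the aldolase A gene, had signals of 118, 124 and 147, log2 changes of -0.40 and -0.28. ZNF160, a repressor of TLR4 in intestinal epithelial cells, had signals of 892, 919 and 890, log2 changes of -0.08 and 0.01. ZNF675, a TRAF6-binding protein also known as TIZ, had 799, 876 and 794, log2 changes of -0.08 and 0.11. ZNF420, also known as APAK, a negative regulator of p53, had signals of 55.8, 71.2 and 64.6 and lay on both sides of NC. By the brightest probe of ZNF160, ZNF675 and ZNF420 the differences from NC were within the SD of the difference between the knockdown arrays given above. Dimmer probes lay higher in some cases, with 0.26 and 0.72 at a second ZNF420 probe and 0.77 and 0.85 at the dimmest ZNF160 probe, each well above background on only 2 arrays.

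ZNF93, a repressor of LINE-1 elements and a relative of ZNF91, stood apart from it. Its signals were 16.3 (not well above background), 19.4 and 29.9. It was at least 1.88-fold lower in SMARCA4-KD1, and its log2 change was -0.65 in SMARCA4-KD2. ZNF331, an imprinted gene, was well above background in SMARCA4-KD2 alone, at a signal of 19.4.

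By their brightest probes, the 5 brightest members in NC differed from it by less than 1.5-fold in both knockdowns, apart from ZNF428. ZNF428, described above, had log2 changes of -0.98 and -0.34. ZNF865 had signals of 162234, 179283 and 166311, log2 changes of -0.12 and 0.08, and a second, much dimmer probe of it gave 0.93 and 1.20. Transcripts listed in the array annotation for its 3 probes include those of SLAMF6. ZNF526 had 27374, 25738 and 29593, log2 changes of -0.20 and -0.23. ZNF90 had 7980, 11298 and 9829, log2 changes of -0.39 and 0.17, and of its 3 probes only this 1 was well above background on any array. ZNF579 had 6788, 7685 and 5956, log2 changes of 0.10 and 0.34. Among the brightest genes of their clusters, ZNF607 had changes of 0.47 and 0.36, ZNF766 of 0.23 and 0.23, and ZNF763 of -0.41 and -0.17.

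Of the 12 members detected on some arrays only, 3 were well above background on both knockdown arrays and not on NC. These were ZNF69, ZNF880 and ZNF419, and none was so on NC alone. The same counts over all genes were not taken. Of all gene names, too, fewer were detected on NC (47.3%) than in SMARCA4-KD1 (48.5%) and SMARCA4-KD2 (49.1%). ZNF69 had signals of 36.4, 23.1 and 7.68, so that it was at least 1.94-fold and at least 1.28-fold higher. ZNF419 was at least 1.26-fold and at least 1.39-fold higher, with signals of 29.1, 31.1 and 21.9. ZNF880 had signals of 18.3, 21.7 and 17.2.

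The knockdown arrays differed from each other by at least 1.5-fold for 6 measured members, ZNF69, ZNF799, ZNF792, ZNF568, ZNF428 and ZNF677, whereas 6.59% of all genes differed by as much. ZNF677 had a signal of 112 in SMARCA4-KD1 but 3.29 in SMARCA4-KD2 and 3.58 in NC, at least 6.0-fold higher in SMARCA4-KD1 than in NC. ZNF792 had signals of 325, 91.0 and 85.1, log2 changes of 1.85 and 0.06. In both genes the SMARCA4-KD1 array alone stood apart, and each had a second probe that was not well above background on any array.

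Agreement between probes was read in the 54 members with more than 1 measured probe. The changes of the brightest and the next probe differed by a median of 0.25 on the log2 scale, and by at least 1.5-fold in 11 genes. Of the 14 genes whose brightest probe was at least 1.5-fold higher in mean change, 6 were so at the next probe as well and 10 had it above 0. Of 3 genes lower by that much, 2 had a next probe below 0. ZNF780A was the single gene whose probes lay at least 1.5-fold on opposite sides of NC.

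Probes of paralogs can share sequence. Of the 242 members, 27 had a probe that shared a run of at least 20 bases with the probe of another gene name, and for 15 this was the probe used. Only 4 used probes shared 30 bases or more, in 2 pairs of the cluster between ZNF101 and ZNF254. The ZNF254 probe also shared a run of 30 bases with a probe of ZNF727, a gene of another chromosome. The first 30 bases of the runs shared within these pairs are printed to show what such probes have in common.
ZNF253 and ZNF85: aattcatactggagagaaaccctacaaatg
ZNF714 and ZNF254: ctacaaatgtgaagaatgtggcaaagcttt

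These 4 genes had small changes, with 0.00 and 0.04 for ZNF253, 0.05 and 0.21 for ZNF85, 0.05 and 0.09 for ZNF714, and 0.02 and 0.05 for ZNF254. None of the 10 highest genes used a probe that shared such a run. Signals of the genes that do share one may hold RNA of the other gene of the pair. Shared runs do not cover all such cases. For 16 used probes, the transcripts listed in the array annotation came from several genes. Among these were the probes of ZNF69, listed also for ZNF440, and of ZNF765, listed also for ZNF761. ZNF765 had changes of 0.83 and 0.73. None of the 10 highest genes was listed with another gene.

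The share of higher genes was also read by level and by GC content of the probe, each cut into 3 bins over all genes. The bins of level were equal in size, whereas those of GC content held 7169, 4188 and 11262 genes because many probes share a value. In the lowest, middle and highest bin of mean level, 19.6%, 23.7% and 23.3% of the zinc finger genes were at least 1.5-fold higher in SMARCA4-KD1, where between 9.97% and 12.9% of all genes were in each bin. In SMARCA4-KD2 the shares were 14.3%, 18.6% and, in the highest bin, 9 of 30 genes, beside 12.4%, 9.22% and 8.85%. By probe GC content the shares were 31.0% in the lowest bin, 18.3% in the middle and 15.4% in the highest in SMARCA4-KD1, while those of all genes were 12.2%, 11.2% and 10.5%. In SMARCA4-KD2 they were 25.4%, 18.3% and 11.5%, beside 10.3%, 9.91% and 10.1%. The part of probe GC content in the counts of higher genes was not tested.

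The proteins through which KRAB zinc fingers act were read from a list of 25 genes, all measured. In SMARCA4-KD1, 7 were at least 1.5-fold lower and 0 higher, and in SMARCA4-KD2 5 were lower and 0 higher, where 12.3% and 9.74% of all genes were lower and 11.2% and 10.1% higher. The list had median log2 changes of -0.14 and -0.17. By limma none passed the adjusted threshold. TRIM28, the corepressor, had signals of 13023, 10249 and 9654, log2 changes of 0.35 and 0.05. SETDB1, the methyltransferase it brings, had 5268, 5333 and 4475, log2 changes of 0.15 and 0.22. Neither differed from NC by 1.5-fold in either knockdown.

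The lower members of the list were chromatin remodelling and silencing factors. CHD4, the ATPase of the NuRD complex, had signals of 998, 1138 and 2834, log2 changes of -1.59 and -1.35, and its relative CHD3, which binds TRIM28, had 517, 654 and 1150, log2 changes of -1.24 and -0.85. MPHOSPH8, a subunit of the HUSH silencing complex, had changes of -0.99 and -0.83, DAXX, a chaperone of histone H3.3, -0.98 and -0.72, and TRIM24 -0.72 and -0.75. MORC2 (-0.74 and -0.48) and FAM208A (-0.63 and -0.27), a partner and a subunit of HUSH, passed 1.5-fold in SMARCA4-KD1 and not in SMARCA4-KD2, and the difference between the knockdowns was not tested. Other members lay above NC by less than 1.5-fold, among them the HUSH subunit PPHLN1 (0.53 and 0.44), the SETDB1 partner ATF7IP (0.55 and 0.48) and KIAA1551 (0.52 and 0.44). Heterochromatin protein genes CBX1, CBX3 and CBX5 had changes between -0.44 and -0.04.

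Some related names on chromosome 19 fall outside the rule, namely 16 ZNF names with another suffix (pseudogenes, antisense and readthrough transcripts), of which 6 were measured, and 14 listed C2H2 genes with names such as ZFP, ZSCAN or ZIM, of which 7 were measured.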

How the data were processed

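Total RNA of HCT116 cells was labelled with Cy3 and hybridised by the authors to 1 array each for SMARCA4-KD1, SMARCA4-KD2 and NC. Each scanner file deposited holds intensity values for 62976 spots, extracted with Agilent Feature Extraction 10.7.1.1 (per the labels and the file headers), including background subtraction and detrending but no normalization between arrays. The deposited series-level table, used as an alternative, holds the same intensity values within 0.1% for all but 1 of the 57901 probes with a single spot. The files also hold flags and the software's error, used as given.

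Control spots and flagged outliers were left out, and each array's 75th percentile of log2 processed signal was subtracted. Where a probe was not called well above background, its value was raised, if lower, to the dimmest called value of the same array, and a change against it is a limit. Probes called on 1 array or more were kept, the brightest probe standing for its gene name. No sample has a second array, so the spread between cultures is unknown and precision is limited by having 1 array per condition. Single knockdowns were set against NC at a threshold of 1.5-fold without a test. The pair of knockdowns was tested against NC in limma 3.58.1 (R 4.3.3), using the intensity trend and adjusting over 22619 genes by Benjamini-Hochberg, which leaves 1 residual degree of freedom. Other steps used Python 3.11.15, numpy 2.4.6, pandas 2.3.3 and matplotlib 3.10.9, and the steps were tested on simulated data. Probe positions are those of the files (hg19), and promoters are those of RefSeq (GRCh38.p14), with coordinates never mixed.

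Named genes were the 10 highest and the 10 lowest by the smaller change of both knockdowns among genes detected on all arrays, the 5 brightest in NC, the brightest of each larger cluster, genes detected in NC only or in both knockdowns only, and 11 genes with a described role. A few others were named after their values were seen. The members, lists and tests were chosen with earlier results of these data known, and the promoter words were chosen after the files were seen. Alternatives were other percentiles, quantile normalization, normexp with an offset of 50, cyclic loess (added after seeing the data), the series-level table, other filters, no floor, other rules for probes, 2-fold, no trend in limma, and gaps of 0.5 and 2 Mb between clusters.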

Additional observations from a re-analysis of the deposited data

How the results depend on the processing

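With 1 array per condition no replicate could be left out, and no paired analysis was possible because each condition has 1 array. The median changes and the range of cluster medians moved by less than 0.23, the SD between knockdown arrays (the SD of their difference over the square root of 2), under each alternative run. The number of measured genes was 171 with genes detected on all 3 arrays, 242 without a filter and 183 otherwise. After normexp background correction 23 zinc finger genes were at least 1.5-fold higher and 2 lower in SMARCA4-KD1. In SMARCA4-KD2, 21 were higher and 0 lower. Of all genes 6.72% and 5.47% were then higher and 6.02% and 4.48% lower. At 2-fold, 12 were higher and 0 lower in SMARCA4-KD1 and 8 higher and 0 lower in SMARCA4-KD2. Of all genes 3.41% and 2.83% were higher by as much and 3.64% and 2.59% lower. With every probe counted, 11 of 249 probes (4.42%) were lower in SMARCA4-KD1 and 53 (21.3%) higher in SMARCA4-KD2, since more values were counted. Of the probes of all genes, 12.1% were lower in SMARCA4-KD1 and 10.2% higher in SMARCA4-KD2. Without a floor the SD of the difference between the knockdown arrays, not divided, was 0.56, where it had been 0.32. Limma's adjusted calls among the zinc finger genes, 0 as reported, were 12 with the percentile over detected probes, 21 after quantile normalization, 28 after cyclic loess, 32 after normexp, 37 without a floor, 40 in the series-level table, 47 with genes detected on all 3 arrays and 132 without a filter, when calls over all genes ran from 1598 to 30934. They stayed at 0 with the mean over probes, with every probe counted and with no trend. In the series-level table the probe that differs from the scanner files set a lower floor, at -5.06, -5.17 and -4.31 instead of -3.81, -3.80 and -3.66 on the log2 scale for SMARCA4-KD1, SMARCA4-KD2 and NC. Whether this floor bore on the adjusted calls was not tested, and neither was the cause for the other alternatives. Without a filter the medians for SMARCA4-KD1 and SMARCA4-KD2 were -0.15 and -0.14 over all genes, and 0.01 and 0.03 over the zinc finger genes. Of 337 values of the 38 named genes, 314 moved by less than 0.23, 22 moved by more and 1 reversed, ZNF780A, at 0.41 with the mean over its probes. Signal over background limits dim genes, whose changes shrank most with normexp.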
